A study of Mus musculus with 26 samples.

Results

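Pericentral hepatocyte genes are genes whose transcripts are found mainly in the hepatocytes around the central vein of the liver lobule. The 10 described here are Glul, Cyp2e1, Cyp1a2, Oat, Slc1a2, Rhbg, Lgr5, Axin2, Tbx3 and Rgn. They were taken by symbol, through their Ensembl identifiers with the version removed, and all 10 were found among the 47643 genes of the count table.

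Liver messenger RNA was sequenced in 26 libraries that form 10 groups, and each treated group had a control group of its own. Wild-type C57BL/6J mice of 8 weeks, fed ad libitum, received TCPOBOP (2 libraries), an agonist of the nuclear receptor CAR, or corn oil (2 libraries). The titles of the TCPOBOP libraries give 36 h after the injection and their source names give 6 h, so the time is uncertain. C57BL/6J mice of 12 weeks, fed ad libitum, were either wild type (3) or double knockouts of Fxr and Shp (3). Fxr (Nr1h4) encodes a nuclear receptor for bile acids and Shp (Nr0b2) a corepressor that it induces. C3H/HeN mice of 8 to 10 weeks, fed ad libitum and with no genotype given, were studied 48 h after partial hepatectomy (3) or after a sham operation at 0 h (3), so surgery and time after surgery cannot be told apart. Hepatocytes were isolated after a 10 h fast from wild-type C57BL/6J mice of 16 weeks on a 60% high-fat diet (2) or on chow (2). The last experiment used C57BL/6J mice of 10 to 12 weeks that were fl/fl for both Fxr and Shp. Their diet held the bile acid cholic acid (3) or was chow (3), with a fast of 8 to 10 h before sampling; both groups carried the floxed alleles, and the labels name no Cre. All samples other than the isolated hepatocytes were whole liver, and nothing in the labels says that replicates came from separate mice, so p-values measure the spread between these libraries.

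As background, blood crosses the lobule from the portal triad to the central vein, and hepatocytes along that path carry different enzymes. Endothelial cells of the central vein secrete Wnt ligands and R-spondin 3, and the beta-catenin signal in the nearest hepatocytes keeps their pericentral genes on. Glutamine synthetase there captures the ammonia that periportal urea synthesis has left, and the cytochromes P450 there oxidise drugs and toxins.

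Promoters of 6 of the 10 genes were matched in a RefSeq table (GRCm38.p6, from 250 bases before to 50 bases after 1 RefSeq start per gene). The promoters of Cyp2e1 and Slc1a2 are shown because these genes fell in 4 comparisons, and those of Glul and Oat because their changes differed between comparisons. All are written 5′ to 3′ on the strand of the gene, and capitals mark matches to CTTTGA, the core to which TCF and LEF factors bind (either strand, so TCAAAG on the opposite one), or to TATAAA, the TATA box. Cyp2e1 is shown at chr7:140763569-140763868 (plus strand), Slc1a2 at chr2:102706188-102706487 (plus), Glul at chr1:153899679-153899978 (plus) and Oat at chr7:132576349-132576648 (minus).
Cyp2e1: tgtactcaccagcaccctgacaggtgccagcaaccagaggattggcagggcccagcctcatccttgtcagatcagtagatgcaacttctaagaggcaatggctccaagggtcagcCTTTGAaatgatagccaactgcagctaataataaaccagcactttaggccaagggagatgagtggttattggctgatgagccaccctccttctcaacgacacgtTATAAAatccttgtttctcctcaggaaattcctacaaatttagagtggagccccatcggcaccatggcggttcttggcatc
Slc1a2: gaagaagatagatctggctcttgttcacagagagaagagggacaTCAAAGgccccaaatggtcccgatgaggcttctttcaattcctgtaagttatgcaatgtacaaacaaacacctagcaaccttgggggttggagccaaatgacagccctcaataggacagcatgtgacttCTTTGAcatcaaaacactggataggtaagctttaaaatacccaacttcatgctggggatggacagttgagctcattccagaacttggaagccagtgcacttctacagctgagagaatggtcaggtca
Glul: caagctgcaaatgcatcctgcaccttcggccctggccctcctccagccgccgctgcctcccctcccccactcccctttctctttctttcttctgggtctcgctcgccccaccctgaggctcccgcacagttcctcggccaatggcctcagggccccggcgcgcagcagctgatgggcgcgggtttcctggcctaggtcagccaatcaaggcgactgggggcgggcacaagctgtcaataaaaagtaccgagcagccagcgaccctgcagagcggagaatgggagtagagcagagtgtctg
Oat: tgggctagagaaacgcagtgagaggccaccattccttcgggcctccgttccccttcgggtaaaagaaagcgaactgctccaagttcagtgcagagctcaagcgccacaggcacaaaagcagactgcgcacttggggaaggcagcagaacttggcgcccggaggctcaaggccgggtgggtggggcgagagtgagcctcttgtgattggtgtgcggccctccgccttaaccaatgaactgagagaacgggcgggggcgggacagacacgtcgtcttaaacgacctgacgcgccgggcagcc
The RefSeq start of Slc1a2 lies 47779 bases downstream of the start of its gene model in GENCODE M21, at the start of 2 of its 12 transcripts there, so the window shown is that of an internal start. For the other matched genes the starts lie at most 80 bases apart. The Cyp2e1 promoter held CTTTGA at -135 and TATAAA at -31 from the RefSeq start. The Slc1a2 window held CTTTGA at -77 from its internal start on its own strand and at -206 on the opposite strand. Cyp1a2, not printed, held CTTTGA on the opposite strand at -243 and TATAAA at -29. Glul, Oat and Axin2 held neither motif in this window. Of 32851 promoters of the same length, searched on both strands, 16% held CTTTGA and 13.6% held TATAAA. The core of the aryl hydrocarbon response element, GCGTG, was in none of the 6 promoters and in 32.4% of all of them. The 3 motifs do not overlap one another in these promoters, and a match is a run of letters, not a measured binding site.

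The libraries held between 13949059 and 70367874 gene counts. Levels are given as CPM, the counts scaled to a common library size, and 3 counts, the floor used here, correspond to 0.045 to 0.222 CPM. The level of each targeted gene was checked against the labels. Cyp2b10, the enzyme that CAR agonists induce, had 3421 and 2977 CPM in the TCPOBOP libraries and 10.01 CPM in corn oil replicate 2, but the library with the label corn oil replicate 1 had 3673 CPM. Nr0b2 had 280, 446 and 226 counts in wild-type livers and 13, 25 and 39 in knockout livers, and Nr1h4 had 2846, 2546 and 1941 against 1421, 1198 and 1356 counts. In CPM, Nr1h4 was at 147, 153 and 114 in wild type and 61.6, 52.9 and 55.5 in knockout, so reads of this gene were still present. The labels do not say which part of either gene was deleted, and a count over the whole gene does not check the loss of Fxr. Markers of hepatocytes summed to between 18848 and 32664 CPM in every library outside the CAR experiment, so hepatocyte RNA was present in each. Across the 22 pairs of replicates, counts differed well beyond sampling noise (chi-square per degree of freedom at least 7.48), so each library was counted as 1 sample.

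Per kilobase of exon, the members ranged widely in level. Over the 12 control libraries other than corn oil replicate 1, the median level was 4804 CPM per kb for Cyp2e1, 683 for Rgn, 418 for Oat, 353 for Cyp1a2 and 221 for Glul. It was 12.2 CPM per kb for Slc1a2, 3.65 for Tbx3, 1.44 for Axin2, 0.443 for Rhbg and 0.383 for Lgr5. The 5 metabolic enzymes stood far above the transporters and the Wnt-linked genes on this scale. Rgn had the widest range among those enzymes in controls (165 to 841 CPM per kb), and Cyp2e1 a narrow one (3543 to 6131).

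**Figure D1:**
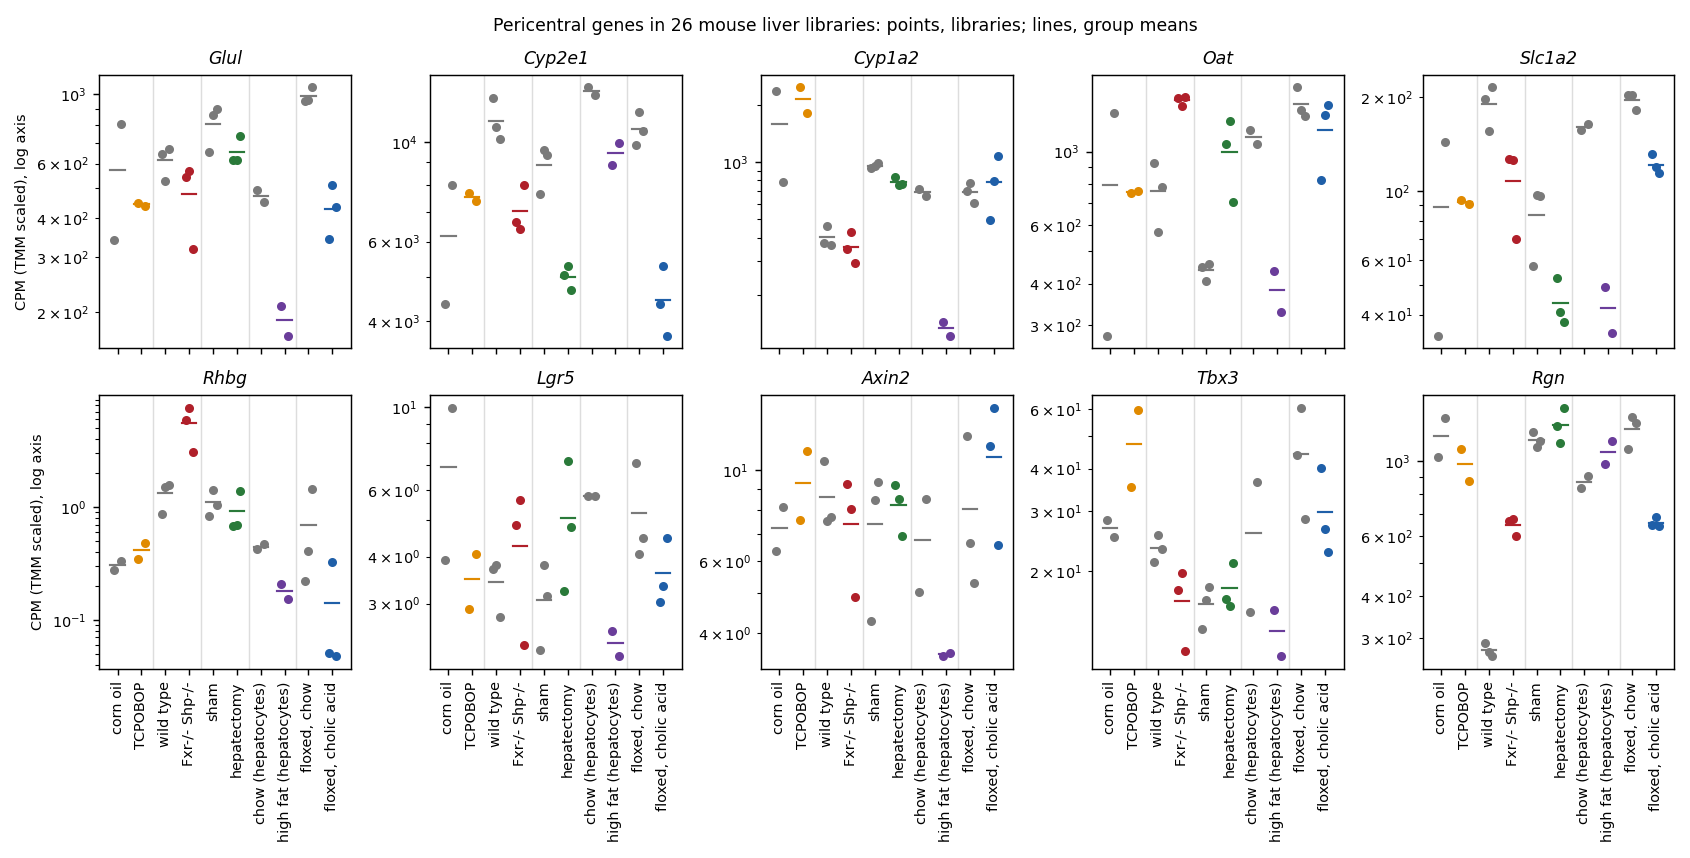
Level of each of the 10 pericentral genes in CPM (log axis) in every library, by group, with each control group (grey) beside its treated group; points are libraries and short lines are group means. Cyp2e1 and Slc1a2 sit lower in the knockout, hepatectomy, high-fat and cholic acid libraries than in every library of their own controls, and the 2 corn oil libraries lie far apart for Oat and Slc1a2.

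Each treated group was compared with its control by edgeR's quasi-likelihood test, and a gene was called at a Benjamini-Hochberg adjusted p under 0.05 over all genes tested. In Fxr/Shp knockout livers 5 of the 10 members were called (3 raised, 2 lowered), where 40.4% of 13473 genes were called (21% raised, 19.4% lowered). After hepatectomy 4 of 10 were called (1 raised, 3 lowered), where 30.7% of 13753 genes were called (16.4% raised, 14.3% lowered). In hepatocytes of mice on the high-fat diet 7 of 10 were called, all lowered, where 24% of 13892 genes were called and 11.1% were lowered. Under cholic acid 4 of the 9 members tested were called, all lowered, where 4.77% of 12577 genes were called and 2.5% were lowered. With TCPOBOP 0 of 9 were called by edgeR and 0 by DESeq2, and 1 had an unadjusted p under 0.05 in edgeR, where 0% of 12785 genes were called. Rhbg had too few counts to pass the expression filter in the TCPOBOP and cholic acid comparisons. The shares of members called in the knockout and after hepatectomy lay near those of all genes. The members were chosen with earlier results of these data known. Their counts and medians therefore describe these libraries and do not test the set. The median log2 change over the members tested was -0.18 in the knockout, -0.06 after hepatectomy, -1.32 on the high-fat diet and -0.57 under cholic acid, and over all genes tested it was between -0.01 and 0.01. Groups without any overlap between their libraries were found for 6 of 10 members in the knockout (53.7% of all genes), 4 of 10 after hepatectomy (47.1%), 9 of 10 on the high-fat diet (67.7%), 4 of 9 under cholic acid (31.1%) and 1 of 9 with TCPOBOP (34.8%). In whole liver and in the bulk isolated hepatocytes alike, the share of pericentral hepatocytes was not measured. Fewer such cells and less of a transcript per hepatocyte cannot be told apart in any of these values.

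**Figure D2:**
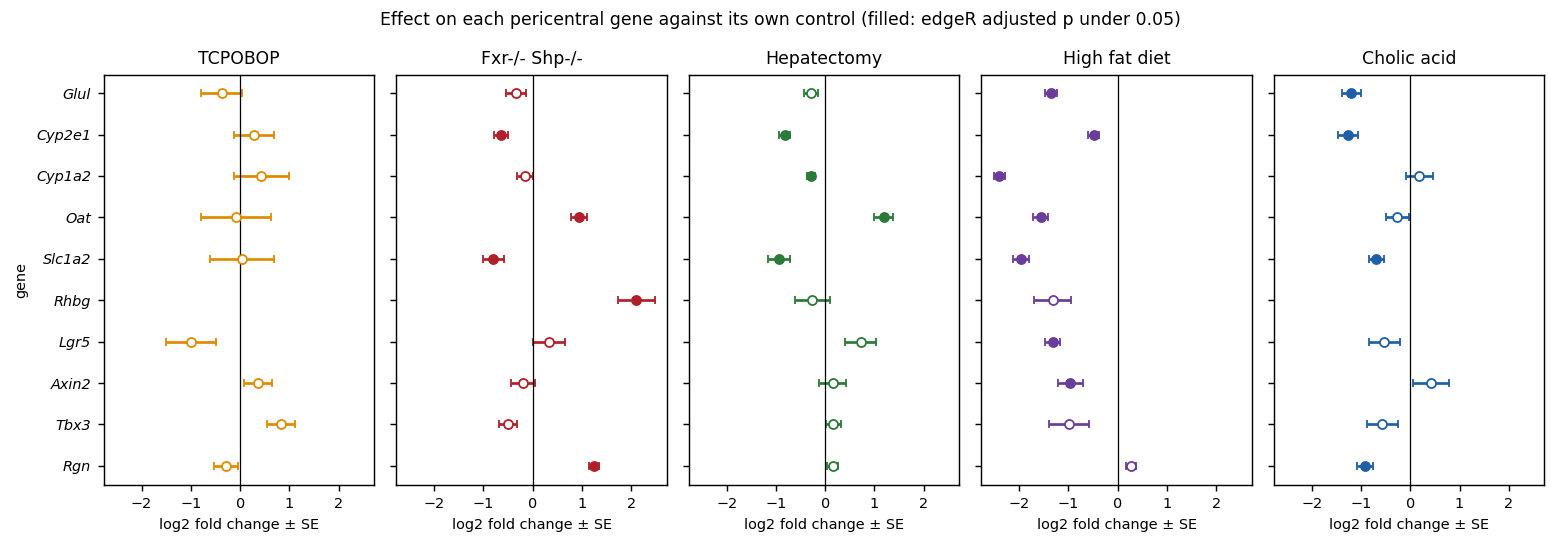
Log2 fold change of each member in each of the 5 comparisons, with bars of 1 standard error; filled points passed an adjusted p of 0.05. Cyp2e1 and Slc1a2 lie below 0 with filled points in 4 comparisons, Oat lies above 0 in the knockout and after hepatectomy and below 0 on the high-fat diet, and no point is filled for TCPOBOP.

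Cyp2e1 and Slc1a2 were lowered in all 4 of the knockout, hepatectomy, high-fat and cholic acid comparisons, which share no control libraries. Of 12049 genes tested in all 4, 37 were lowered in each (0.307%), these 2 members among them. The count of 4 did not hold for either gene under every setting. With all 26 libraries in a single fit, adjusted p was 0.213 for Cyp2e1 on the high-fat diet, and 0.0599 in the knockout and 0.139 under cholic acid for Slc1a2. With the replicate number as a block it was 0.0683 for Cyp2e1 on the high-fat diet and 0.0846 for Slc1a2 under cholic acid, where it was also 0.0537 with no filter on low counts. Directions were the same in these fits.

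Cyp2e1 (chr7:140763739-140774987, plus strand, GRCm38) encodes the ethanol-inducible cytochrome P450 that also oxidises acetaminophen. It stood at 12498, 10770.2 and 10161 CPM in wild-type livers and at 6624, 6395 and 8019 in knockout livers. In sham livers it stood at 7646, 9572 and 9354 CPM and after hepatectomy at 5049, 5291 and 4681. Chow hepatocytes had 13231 and 12697 CPM and high-fat hepatocytes 8898 and 9953. Every treated library lay below every control library in these 3 experiments and in the cholic acid one, where chow livers had 9820.1, 11666 and 10574 CPM and cholic acid livers 4352, 5302 and 3710.4. The log2 change was -0.65 ± 0.15 (SE; edgeR adjusted p = 0.008) in the knockout and -0.82 ± 0.12 (adjusted p = 0.00148) after hepatectomy. It was -0.49 ± 0.11 (adjusted p = 0.0268) on the high-fat diet and -1.26 ± 0.21 (adjusted p = 0.015) under cholic acid. None of the 6 tests of a difference between these effects was called for Cyp2e1, with differences between -0.35 and 0.79 on the log2 scale. Axin2 and Tbx3 also had no called difference. The high-fat call did not hold without chow replicate 1 (adjusted p = 0.0647) or high-fat replicate 1 (adjusted p = 0.0927).

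Cyp1a2 (chr9:57676937-57683703, minus strand) encodes the P450 that metabolises caffeine and is a target of the aryl hydrocarbon receptor. Its largest change was in high-fat hepatocytes, where 718 and 664 CPM in chow libraries stood against 145 and 122. That is a log2 change of -2.40 ± 0.12 (edgeR adjusted p = 0.000776), the most negative value of any member in any comparison, and the groups did not overlap. After hepatectomy the sham libraries had 930.5, 948 and 991 CPM and the hepatectomy libraries 832, 761 and 762, without overlap. This small fall of 0.28 ± 0.08 on the log2 scale (adjusted p = 0.0312) was lost in 4 of 6 fits that left out 1 library, with adjusted p between 0.0514 and 0.116 (without any of the 3 sham libraries or hepatectomy replicate 2). Wild-type livers had 374, 463 and 366 CPM and knockout livers 348, 427 and 293, and these ranges overlapped (-0.15 ± 0.16, adjusted p = 0.465). Under cholic acid the spread was wide: 498, 799 and 1072 CPM against 704, 779 and 608 on chow (0.18 ± 0.28, adjusted p = 0.732). Without cholic acid replicate 3 the sign was the other one (-0.10). The fall on the high-fat diet differed from the effect in the knockout by 2.26 ± 0.23, from that of hepatectomy by 2.10 ± 0.14 and from that of cholic acid by 2.56 ± 0.39, each a called difference (adjusted p = 0.00014, 2.27e-05 and 0.00798).

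None of the other listed targets of the aryl hydrocarbon receptor that could be tested was called lowered. Of the 5 (Cyp1a1, Cyp1b1, Ahrr, Tiparp and Nqo1), 3 to 4 passed the filter in each of the 4 comparisons outside the CAR experiment. Among all genes 19.4% were lowered in the knockout, 14.3% after hepatectomy, 11.1% on the high-fat diet and 2.5% under cholic acid. A list this short cannot be told apart from those shares. On the high-fat diet, where Cyp1a2 fell most, 3 were tested and 1 was called, beside 24% of all genes. Nqo1, a quinone reductase, rose on the high-fat diet from 3.84 ± 0.277 to 9.9 ± 1.03 CPM (SD, n = 2 each; log2 change 1.34, edgeR adjusted p = 0.00524). It also rose under cholic acid, from 5.28 ± 0.163 to 30.3 ± 9.38 CPM (n = 3 each; 2.52, adjusted p = 0.00256), and in the knockout, from 12.6 ± 1.2 to 20.6 ± 4.48 CPM (0.73, adjusted p = 0.00776). Cyp1b1, another P450, rose in the knockout from 1.24 ± 0.335 to 4.87 ± 1.65 CPM (2.00, adjusted p = 0.00138). After hepatectomy 0 of 4 were called by edgeR (1 at an unadjusted p under 0.05), beside 30.7% of all genes.

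Glul (chr1:153899944-153909723, plus strand) encodes glutamine synthetase, which joins ammonia to glutamate in the innermost pericentral hepatocytes. High-fat hepatocytes had 209 and 168 CPM against 493 and 452 in chow hepatocytes, a fall of 1.35 ± 0.13 on the log2 scale (edgeR adjusted p = 0.00404). Cholic acid livers had 343, 511 and 436 CPM against 949.9, 959 and 1056 on chow, a fall of 1.2 ± 0.19 (adjusted p = 0.0141). Both pairs of groups stood well apart. Wild-type livers had 645, 528 and 669 CPM and knockout livers 545, 568 and 320.4, with 2 of the 3 knockout libraries above wild-type replicate 2 (-0.34 ± 0.21, adjusted p = 0.215). Sham livers had 653, 857 and 896 CPM and hepatectomy livers 616, 614 and 735, with hepatectomy replicate 3 above sham replicate 1 (-0.29 ± 0.14, adjusted p = 0.149). Without sham replicate 1, the lowest of its group, Glul was called lower after hepatectomy (-0.43, adjusted p = 0.0338). The change on the high-fat diet lay below that after hepatectomy by 1.04 ± 0.21 (adjusted p = 0.00507). The change under cholic acid lay below that after hepatectomy by 0.91 ± 0.24 (adjusted p = 0.0256). The knockout differed from the high-fat diet by 1.02 ± 0.31 (adjusted p = 0.0483), a call that 9 of 10 fits leaving out 1 library did not keep.

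Slc1a2 (chr2:102658659-102790784, plus strand) encodes the glutamate transporter GLT-1, which brings the substrate of glutamine synthetase into the cell. Wild-type livers had 198, 156 and 216 CPM and knockout livers 126, 126 and 70.2. Sham livers had 57.3, 97.2 and 96.3 CPM and hepatectomy livers 52.4, 40.9 and 37.8. High-fat hepatocytes had 49.1 and 35 CPM against 157 and 164, and cholic acid livers 131, 119.6 and 114 against 204, 203 and 181. No treated library reached the lowest control library in any of these 4 experiments. The falls were 0.80 ± 0.22 in the knockout (edgeR adjusted p = 0.0187), 0.94 ± 0.22 after hepatectomy (0.0135), 1.96 ± 0.16 on the high-fat diet (0.00306) and 0.69 ± 0.15 under cholic acid (0.0397), all on the log2 scale with adjusted p in parentheses. The high-fat fall was larger than that under cholic acid by 1.25 ± 0.23 (adjusted p = 0.0162), than that in the knockout by 1.17 ± 0.34 (0.0419) and than that after hepatectomy by 1.01 ± 0.32 (0.0404). The knockout call was lost without wild-type replicate 1 (log2 change -0.77, adjusted p = 0.0559) or 3 (-0.71, 0.0619). The hepatectomy call was lost without sham replicate 2 (-0.82, 0.0566) or 3 (-0.82, 0.0595).

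Oat (chr7:132557478-132576398, minus strand) encodes ornithine aminotransferase, a mitochondrial enzyme that turns ornithine into a precursor of glutamate. Oat and Rgn were the 2 members called in both directions. Knockout livers had 1453, 1369 and 1462 CPM against 922, 574 and 779.8 in wild-type livers, a rise of 0.93 ± 0.16 on the log2 scale (edgeR adjusted p = 0.00234). Hepatectomy livers had 1051, 1237 and 706 CPM against 449.6, 409 and 459 in sham livers, a rise of 1.19 ± 0.19 (adjusted p = 0.00241). High-fat hepatocytes had 436 and 328 CPM against 1164 and 1052, a fall of 1.57 ± 0.15 (adjusted p = 0.00424). Groups did not overlap in any of these 3 experiments. Under cholic acid the values were 819, 1285 and 1384 CPM against 1566, 1334 and 1279 on chow, with overlap (-0.26 ± 0.23, adjusted p = 0.532). The difference between hepatectomy and the high-fat diet was 2.74 ± 0.29 (adjusted p = 0.000173) and that between the knockout and the high-fat diet 2.51 ± 0.27 (adjusted p = 0.000157). Cholic acid differed from the knockout by 1.2 ± 0.30 (adjusted p = 0.0182) and from hepatectomy by 1.45 ± 0.31 (adjusted p = 0.0104).

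Rhbg (chr3:88242874-88254709, minus strand) encodes a membrane transporter of ammonia. Its level is uncertain, because 61.4% of its exonic bases are shared with the gene model Gm38392 on the same strand, which had 0 or 1 counts in each library, and reads in shared bases can be discarded in counting. Knockout livers had 138, 173 and 76 counts and wild-type livers 17, 25 and 27. In CPM this was 5.98, 7.64 and 3.11 against 0.878, 1.51 and 1.59, without overlap, a rise of 2.10 ± 0.37 on the log2 scale (edgeR adjusted p = 0.0026). High-fat hepatocytes had 14 and 10 counts against 22 and 27 in chow hepatocytes (-1.32 ± 0.37, adjusted p = 0.0522). Sham livers had 26, 49 and 31 counts and hepatectomy livers 24, 24 and 51, with overlap (-0.26 ± 0.36, adjusted p = 0.624). In the floxed mice it had 3, 6 and 20 counts on chow and 1, 6 and 1 under cholic acid, with 3 of these 6 libraries at or below the floor of 3 counts. The effect in the knockout exceeded that of hepatectomy by 2.37 ± 0.56 (adjusted p = 0.00594) and that of the high-fat diet by 3.42 ± 0.63 (adjusted p = 0.00474).

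Other genes of glutamate, glutamine and ornithine metabolism moved in both directions. Of the 16 on the list, 14 were tested in the knockout, with 6 raised and 1 lowered, where 40.4% of all genes were called. After hepatectomy 15 were tested, with 2 raised and 5 lowered, where 30.7% of all genes were called. On the high-fat diet 3 of 15 were raised and none lowered, where 24% of all genes were called. Under cholic acid 0 of 14 were called by edgeR, where 4.77% of all genes were called (4 of the 14 had an unadjusted p under 0.05). Aldh18a1, which makes the proline and ornithine precursor from glutamate, rose in the knockout from 0.753 ± 0.297 to 2.31 ± 0.549 CPM (SD, n = 3 each; adjusted p = 0.00603) and after hepatectomy from 0.63 ± 0.266 to 1.97 ± 0.602 CPM (adjusted p = 0.0146). Got1, cytosolic aspartate aminotransferase, fell after hepatectomy from 659 ± 70.5 to 270.1 ± 134 CPM (adjusted p = 0.0211), a call lost without sham replicate 2 or 3 or hepatectomy replicate 2 (0.0594 to 0.0734). Gpt2, an alanine aminotransferase, fell there from 764 ± 152 to 375 ± 85.0 CPM (adjusted p = 0.00691). Prodh, which begins proline breakdown, fell in the knockout from 196 ± 24.2 to 86.8 ± 1.4 CPM (adjusted p = 7.51e-05).

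Axin2, Lgr5 and Tbx3 stand close to the Wnt signal itself. Axin2 (chr11:108920349-108950783, plus strand) encodes a scaffold of the complex that destroys beta-catenin and is a feedback target of the pathway. It was called only on the high-fat diet, at 3.51 and 3.58 CPM against 5.03 and 8.49 on chow (-0.96 ± 0.26 on the log2 scale, edgeR adjusted p = 0.0451), without overlap. That call was lost without chow replicate 2 (-0.55, adjusted p = 0.0908) and without high-fat replicate 1 or 2 (adjusted p = 0.138 and 0.107). In the other 3 comparisons its groups overlapped. Wild-type livers had 10.5, 7.53 and 7.71 CPM and knockout livers 9.27, 8.03 and 4.91 (-0.20 ± 0.24, adjusted p = 0.542). Sham livers had 4.29, 8.48 and 9.38 CPM and hepatectomy livers 9.23, 8.49 and 6.92 (0.15 ± 0.28, adjusted p = 0.716). Floxed mice had 12.1, 6.65 and 5.29 CPM on chow and 11.5, 14.2 and 6.58 under cholic acid (0.42 ± 0.37, adjusted p = 0.534). The sign was the other one without knockout replicate 3 (0.04) and without sham replicate 1 (-0.13).

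Lgr5 (chr10:115450311-115587780, minus strand) encodes a receptor for R-spondins. High-fat hepatocytes had 2.535 and 2.175 CPM against 5.79 and 5.78 in chow hepatocytes, without overlap, a fall of 1.32 ± 0.16 on the log2 scale (edgeR adjusted p = 0.00683). In the knockout it had 4.85, 5.65 and 2.33 CPM against 3.72, 3.79 and 2.76, with overlap through replicate 3 (0.33 ± 0.32, adjusted p = 0.431). Without that library it was called higher (0.64, adjusted p = 0.0311). Hepatectomy livers had 3.25, 7.16 and 4.79 CPM against 2.26, 3.80 and 3.14 in sham livers (0.72 ± 0.31, adjusted p = 0.117), and without hepatectomy replicate 1 the gene was called higher (0.96, adjusted p = 0.0375). Under cholic acid it had 3.03, 3.34 and 4.48 CPM against 7.11, 4.07 and 4.5 on chow (-0.53 ± 0.31, adjusted p = 0.347). The change on the high-fat diet lay below that after hepatectomy by 2.03 ± 0.43 (adjusted p = 0.00681) and below that in the knockout by 1.67 ± 0.43 (adjusted p = 0.0252).

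Tbx3 (chr5:119670669-119684724, plus strand) encodes a T-box repressor. It was called in none of the comparisons. Knockout livers had 17.5, 19.7 and 11.6 CPM, each below the wild-type values of 21.3, 25.5 and 23.2 (-0.50 ± 0.18, edgeR adjusted p = 0.0575), and DESeq2 called this difference (adjusted p = 0.0454). High-fat hepatocytes had 15.3 and 11.2 CPM against 15.2 and 36.5 in chow hepatocytes, whose own 2 libraries stood far apart (-0.99 ± 0.40, adjusted p = 0.122). Without chow replicate 1 Tbx3 was called lower (-1.49, adjusted p = 0.00345). Sham livers had 13.4, 16.4 and 18.0 CPM and hepatectomy livers 16.5, 15.8 and 21.0, with overlap (0.16 ± 0.15, adjusted p = 0.47). Floxed mice had 43.8, 60.5 and 28.4 CPM on chow and 40.2, 26.6 and 22.6 under cholic acid, also with overlap (-0.57 ± 0.31, adjusted p = 0.314).

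Further feedback and target genes of the Wnt pathway were listed, of which 8 of 9 were tested in each of these comparisons. In the knockout 2 were raised and 2 lowered. After hepatectomy 4 were raised (2 to 4 with 1 library left out) and none lowered, with Rnf43, a ligase that removes Wnt receptors, rising from 11 ± 0.126 to 27.5 ± 5.64 CPM (SD, n = 3 each; log2 change 1.31, edgeR adjusted p = 0.000484). On the high-fat diet 2 were raised and 2 lowered, Nkd1 rising (1.39, adjusted p = 0.0277) and Tcf7 falling (-1.16, adjusted p = 0.0229). The Nkd1 call was lost without chow replicate 2 or either high-fat library (adjusted p 0.0788 to 0.131) and the Tcf7 call without high-fat replicate 1 (0.0788), and with 1 library left out the list had 1 to 2 raised and 0 to 4 lowered. Under cholic acid 1 was called, Ccnd1 (2.27, adjusted p = 0.0019). Ccnd1, cyclin D1, which is also a cell cycle gene, was called raised in all 4 of these comparisons. After hepatectomy its groups overlapped (1.29, adjusted p = 0.0344), and that call was kept in 1 of 6 fits with 1 library left out, the one without hepatectomy replicate 3 (adjusted p 0.0763 to 0.103 in the others). Among the 25 components of the signal, 4 were raised and 5 lowered in the knockout, 3 and 5 after hepatectomy, 1 and 7 on the high-fat diet, and 0 by edgeR under cholic acid (7 at an unadjusted p under 0.05). Beside the counts of all these Wnt lists, the shares of all genes called were 40.4%, 30.7%, 24% and 4.77%, in the same order of comparisons. Of the ligands and antagonists, 3 of 8 tested rose in the knockout and 1 fell. Dkk3, of the Dickkopf family of antagonists, rose from 1.43 ± 0.147 to 7.78 ± 0.898 CPM (log2 change 2.46, adjusted p = 2.93e-05), Wnt5a rose (1.72, adjusted p = 0.0128) and Wnt5b fell (-1.45, adjusted p = 0.000452). Under cholic acid 0 of 8 were called by edgeR (0 at an unadjusted p under 0.05, and 0 by DESeq2). After hepatectomy 3 of 10 rose and none fell. They were Wnt9b, a ligand of the central vein endothelium, from 1.19 ± 0.343 to 4.14 ± 0.27 CPM (adjusted p = 0.00105), Wnt5a, a ligand of the non-canonical branch, from 1.43 ± 0.162 to 4.29 ± 0.369 (adjusted p = 0.000484) and Rspo3 from 2.81 ± 0.361 to 4.34 ± 0.767 (adjusted p = 0.0433). The Rspo3 call was kept in 1 of 6 fits with 1 library left out, the one without hepatectomy replicate 2 (adjusted p 0.0686 to 0.123 in the others). In high-fat hepatocytes 2 of 5 rose and none fell. They were Wnt5b (1.13, adjusted p = 0.0107) and Rspo3, a product of endothelial cells, from 0.184 ± 0.0405 to 0.666 ± 0.0974 CPM (n = 2 each, adjusted p = 0.0218). This Rspo3 call was lost without chow replicate 2 or either high-fat library (adjusted p 0.0664 to 0.122).

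Rgn (chrX:20549787-20562089, plus strand) encodes regucalcin, a calcium-binding lactonase. Knockout livers had 669, 674 and 600.2 CPM against 290.1, 273 and 265 in wild-type livers, a rise of 1.25 ± 0.10 on the log2 scale (edgeR adjusted p = 3.49e-05). Cholic acid livers had 648, 683 and 645 CPM against 1089.9, 1352 and 1295 on chow, a fall of 0.92 ± 0.17 (adjusted p = 0.0206). Neither pair of groups overlapped, and the knockout value exceeded the cholic acid value by 2.18 ± 0.18 (adjusted p = 2.04e-05). The wild-type livers were the lowest of all groups for this gene, and the knockout livers lay near the cholic acid livers in level. Sham livers had 1221, 1105 and 1150.3 CPM and hepatectomy livers 1277, 1131 and 1443, with overlap (0.15 ± 0.11, adjusted p = 0.327). High-fat hepatocytes, at 985 and 1152 CPM, lay above chow hepatocytes at 834 and 905 (0.27 ± 0.11, adjusted p = 0.128). It was the only member with a higher mean on the high-fat diet.

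**Figure D3:**
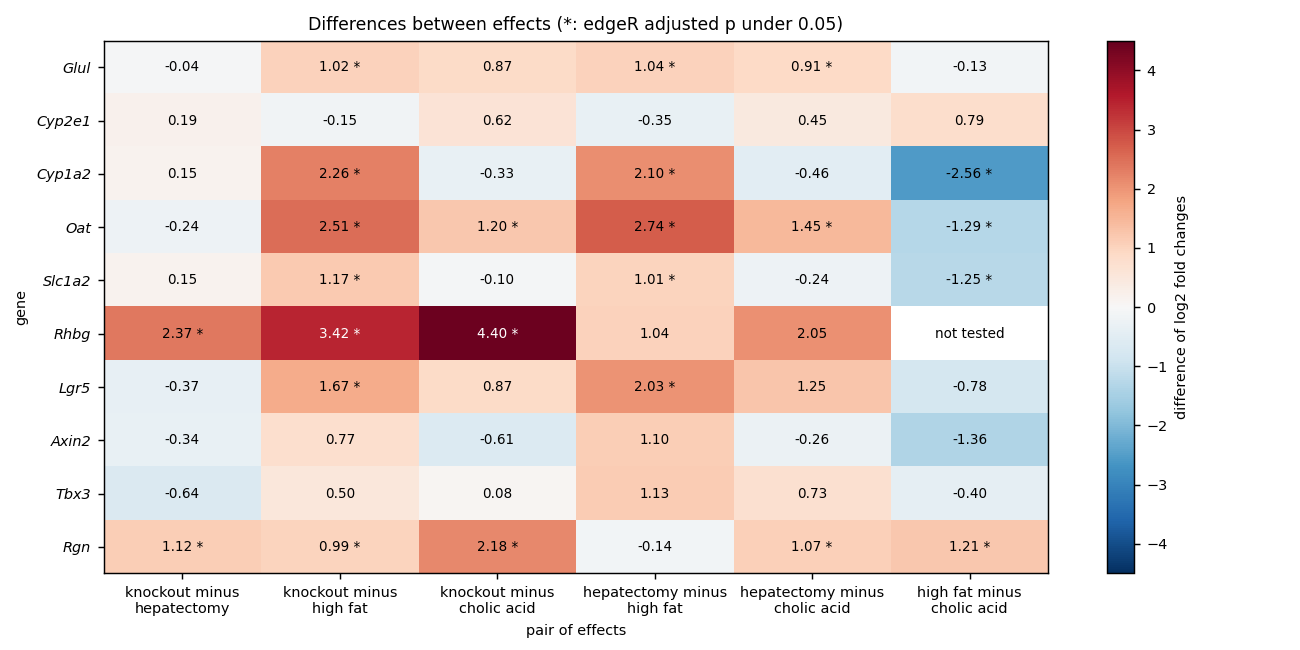
Heat map of the difference of log2 fold changes (colour and printed value) for each member (rows) and each of 6 pairs of experiments (columns); a star marks an adjusted p under 0.05. Stars are most frequent in the column of the knockout minus the high-fat diet, with 7, and the Cyp2e1, Axin2 and Tbx3 rows have 0 each.

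Tests of the difference between effects were fitted on the 4 groups of each pair of experiments. The knockout and hepatectomy differed for 2 of 10 members (Rhbg and Rgn), where 31.5% of all genes differed. The knockout and the high-fat diet differed for 7 of 10 (16.1% of all genes), and hepatectomy and the high-fat diet for 5 of 10 (29.2%). The knockout and cholic acid differed for 3 of 10 (13.9%), hepatectomy and cholic acid for 3 of 10 (13%), and the high-fat diet and cholic acid for 4 of 9 (6.43%). Rhbg failed the filter in the cholic acid experiment alone and passed in the joint fits with the knockout and with hepatectomy through those experiments. Its difference between the knockout and cholic acid (4.40, 1 of the 3) is therefore a description, without which 2 of 9 differed, Oat and Rgn. The tissue, the strain, the age and the feeding state also changed from 1 experiment to the next, and in such differences they cannot be told apart from the treatments. Several calls were lost in fits that left out 1 library, although the differences stayed on the same side of 0. For the knockout against the high-fat diet they ranged from 0.87 to 1.25 for Glul and from 0.94 to 1.40 for Slc1a2. Of 10 fits that left out 1 library, the knockout against the high-fat diet lost Glul and Slc1a2 in 9 each and Lgr5 in 7, hepatectomy against the high-fat diet lost Slc1a2 in 5, and the high-fat diet against cholic acid lost Oat in 8, Rgn in 4, Slc1a2 in 3 and Cyp1a2 in 2. Hepatectomy against cholic acid lost Glul in 4 of 12.

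The high-fat comparison is of isolated hepatocytes, and markers of other liver cells differed between its groups. All 7 endothelial markers were called raised, and their summed level was 44.1 to 45.9 CPM on chow and 109 to 113 on the high-fat diet. Of 7 stellate cell markers 5 were raised (summed level 9.71 to 16.2 against 37.6 to 38.6 CPM), and of 6 Kupffer cell markers 3 were raised (33.0 to 34.7 against 57.2 to 63.7 CPM). Both leukocyte markers tested were raised, and the 7 on the list summed to 0.755 to 1.57 CPM on chow and 2.76 to 3.11 on the high-fat diet. Of 5 proliferation genes 3 were raised (1.78 to 2.77 against 5.1 to 6.18 CPM). Among all genes 12.9% were raised in this comparison. Itgax (leukocyte), Col1a1 (stellate) and Ccnb1 (proliferation) had means of only 0.098, 0.046 and 0.055 CPM on chow. They passed the filter through the high-fat libraries, so their calls are descriptions. Of the bile duct markers Krt19, Epcam and Cftr were at 0 counts in both chow libraries, and Cftr in both high-fat libraries. The summed level of 6 hepatocyte markers was 29170 to 29715 CPM on chow and 26197 to 26393 on the high-fat diet. The part of these cells in the falls of the 7 members was not tested. All 8 members with every high-fat library below every chow library are the 7 called ones and Rhbg, where 30.2% of all genes showed that pattern.

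The other 23 pericentral genes on the list fell on the high-fat diet in 12 cases and rose in 2, with a median log2 change of -0.48. Among all genes 11.1% were lowered there and 12.9% raised. Cyp3a11, a P450 of drug and steroid metabolism, fell from 3618 ± 569.8 to 152 ± 13.1 CPM (SD, n = 2 each; log2 change -4.60 ± 0.16, edgeR adjusted p = 0.000386). Lhpp fell from 67.3 ± 6.77 to 14.9 ± 4.0 CPM (adjusted p = 0.00328), and Cyp2c29 from 1355 ± 151 to 325 ± 35 CPM (adjusted p = 0.00109). Genes of the Cyp2c, Cyp2a, Cyp3a and Gstm families have close copies, so their counts as single genes are uncertain. Of 23 periportal genes 7 rose and 2 fell, with a median of 0.12. Aldh1b1, a mitochondrial aldehyde dehydrogenase, rose from 39.8 ± 9.46 to 141 ± 4.13 CPM (adjusted p = 0.00348) and Hsd17b13, a lipid droplet protein, from 386 ± 90.6 to 824 ± 36.3 CPM (adjusted p = 0.0111).

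**Figure D4:**
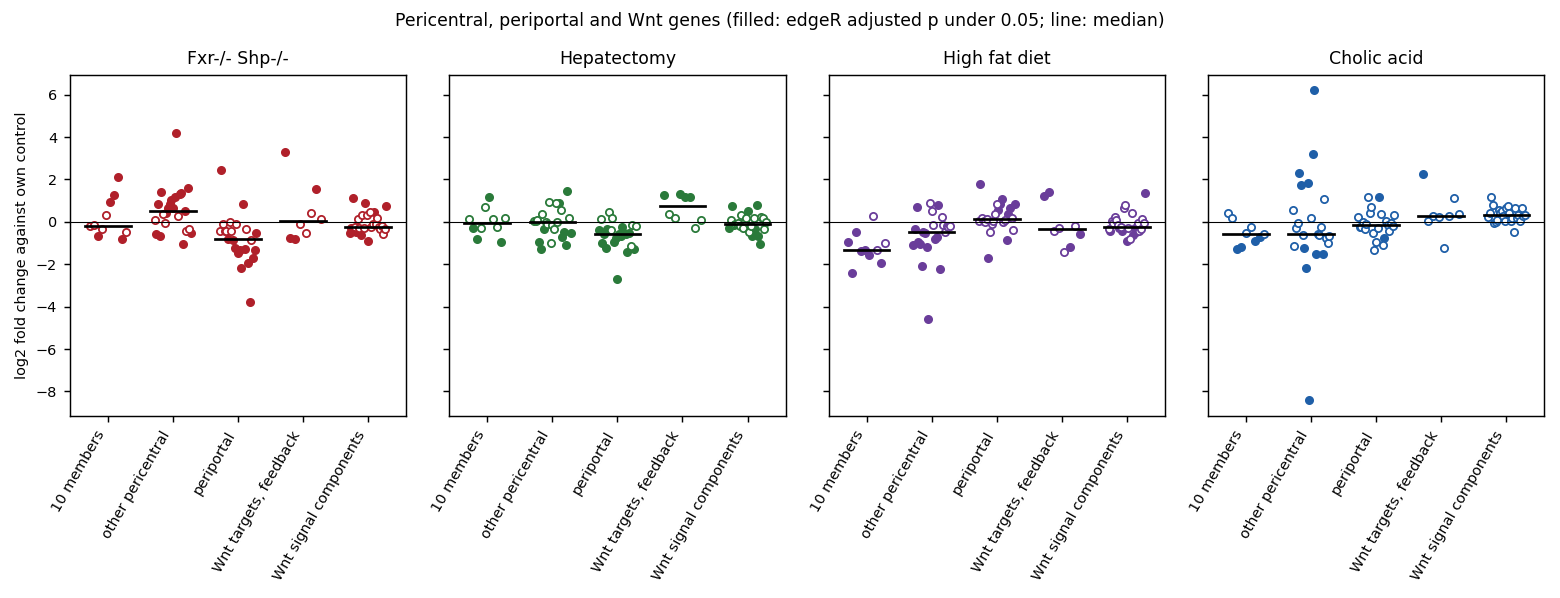
Log2 fold changes of the members, the other pericentral genes, the periportal genes and 2 lists of Wnt genes in 4 comparisons; points are genes, black lines are medians and filled points passed an adjusted p of 0.05. On the high-fat diet the pericentral medians are below 0 and the periportal median above it, and in the knockout and after hepatectomy the periportal medians are -0.81 and -0.55. The lists were chosen with earlier results of these data known.

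In the knockout the other pericentral genes and the periportal genes went different ways. The lists were chosen with earlier results of these data known. Counts and medians over them therefore describe these libraries and do not test a zonal pattern, in this or any comparison. Of 23 other pericentral genes 13 rose and 4 fell (median log2 change 0.52), and of 23 periportal genes 2 rose and 12 fell (median -0.81). Among all genes 21% were raised there and 19.4% lowered. Gstm3, a glutathione transferase, rose from 53.3 ± 22.4 to 951 ± 75.8 CPM (SD, n = 3 each; log2 change 4.18 ± 0.29, edgeR adjusted p = 1.93e-05), and Cyp2a5 from 1188 ± 199 to 3146 ± 712 CPM (adjusted p = 0.000491). Hal, which breaks down histidine, fell from 513 ± 54.4 to 112 ± 8.39 CPM (adjusted p = 4.65e-06). Pigr, the receptor that carries immunoglobulin A into bile, fell from 1340.0 ± 40.5 to 96.6 ± 41.8 CPM (adjusted p = 3.62e-05). Markers of other cells moved with these changes. Of 6 bile duct markers 5 were raised (summed level 26.5 to 36.4 CPM in wild type and 55.0 to 129 in knockout). Of 7 stellate markers 4 were raised and 1 lowered (177 to 287 against 348 to 427 CPM). Cftr, a raised bile duct marker, had a mean of 0.0602 CPM in wild type and passed the filter through the knockout libraries. Hhip, the lowered stellate marker, had 0.0147 CPM in knockout and passed it through the wild-type libraries. The calls of Cftr and Hhip are therefore descriptions. Leukocyte markers summed to 5.66 to 9.06 CPM in wild type and 16.5 to 33.4 in knockout. Hepatocyte markers summed to 27527 to 30354 CPM in wild type and 18848 to 22217 in knockout. Their part in the member changes was not tested. Knockout replicate 3 was the lowest of its group for 8 of the 10 members, and for 39.5% of all genes.

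After hepatectomy the periportal genes fell in 16 of 23 cases and rose in none (median -0.55), while 7 of the other pericentral genes fell and 2 rose (median 0.01). Among all genes 14.3% were lowered there and 16.4% raised. G6pc, which releases glucose from glucose 6-phosphate, fell from 424 ± 190.0 to 64.9 ± 8.02 CPM (SD, n = 3 each; edgeR adjusted p = 0.000902). Pck1, which commits carbon to gluconeogenesis, fell from 2949 ± 427 to 1099 ± 506 CPM (adjusted p = 0.0155). Among pericentral genes Cyp2a5 fell from 925 ± 97.7 to 383 ± 49.5 CPM (adjusted p = 0.000274), Por, the electron donor of the P450s, from 882 ± 196 to 414 ± 133 CPM (adjusted p = 0.0131), and the dicarboxylate transporter Slc13a3 rose from 14.9 ± 2.71 to 41.0 ± 8.4 CPM (adjusted p = 0.000936). The calls of Pck1 (0.0517 and 0.0606) and Por (0.053 and 0.0556) were lost without sham replicate 2 or 3. All 5 proliferation genes were raised beside these changes, from a summed 4.41 to 9.16 CPM in sham livers to 237 to 366 after hepatectomy, and their part was not tested. Sham replicate 1 was the lowest of its group for 8 of the 10 members, and for 38.8% of all genes.

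Under cholic acid the 4 calls (Glul, Cyp2e1, Slc1a2 and Rgn) depended on which libraries were in the fit. No member was called without chow replicate 2, cholic acid replicate 1 or cholic acid replicate 3, and the log2 changes of Glul and Cyp2e1 stayed between -1.05 and -1.24 in those fits with edgeR adjusted p between 0.0549 and 0.0711. Slc1a2 passed in 1 of 6 fits that left out a library (adjusted p up to 0.155 in the others), and Rgn in 2 of 6 (0.0705 to 0.0949 in the others). Over all genes those 6 fits called 189 to 1345, against 600. The other pericentral genes split evenly, with 5 raised and 5 lowered of 23 (median -0.55), where 2.27% of all genes were raised and 2.5% lowered. Cyp7a1, the rate-limiting enzyme of bile acid synthesis, fell from 332 ± 341 to 0.965 ± 0.277 CPM (SD, n = 3 each; log2 change -8.42 ± 0.89, adjusted p = 0.00316). Gstm3 rose from 74.3 ± 21.2 to 5538 ± 2199 CPM (adjusted p = 0.0019) and Gstm1 from 1360.5 ± 267 to 12559.7 ± 2808 CPM (adjusted p = 0.0019). Of 23 periportal genes 1 rose, Hal, and 1 fell, Otc, an enzyme of the urea cycle (adjusted p = 0.0284 and 0.0391). The Hal call was kept in 2 of 6 fits with 1 library left out, without chow replicate 3 or cholic acid replicate 3, and the Otc call in 1, without chow replicate 3. Hepatocyte markers summed to 25952 to 32664 CPM on chow and 19915 to 21847 under cholic acid, proliferation genes to 5.56 to 21.1 and 32.0 to 78.3 CPM, and the part of these in the member changes was not tested.

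In the CAR experiment Glul, Cyp2e1, Cyp1a2, Oat, Slc1a2 and Lgr5 differed widely between the 2 corn oil libraries. Rhbg, Axin2, Rgn and Tbx3 differed little, with ratios of replicate 2 to replicate 1 of 1.21, 1.28, 1.31 and 0.894. Glul was at 342 and 802 CPM in corn oil and 449.8 and 438 CPM with TCPOBOP. Oat was at 279 and 1309.8 CPM against 748 and 761, Slc1a2 at 34.2 and 143 CPM against 93.6 and 90.5, and Cyp1a2 at 2376 and 789 CPM against 2481 and 1821. For Glul, Oat and Slc1a2 both TCPOBOP libraries lay between the 2 corn oil libraries. Replicate 2 stood above replicate 1 of corn oil by 4.70 times for Oat, 4.19 times for Slc1a2, 2.54 times for Lgr5 and 2.34 times for Glul, where the median ratio of the larger to the smaller value was 1.25 over all genes. Cyp2e1 was at 4361 and 8006 CPM in corn oil and at 7706 and 7396 with TCPOBOP. Rgn was at 1028 and 1347 against 1090.0 and 877, Lgr5 at 3.91 and 9.95 against 2.90 and 4.07, Axin2 at 6.34 and 8.12 against 7.55 and 11.1, and Rhbg at 5 and 6 counts against 6 and 8. Tbx3, at 28.2 and 25.2 CPM against 35.2 and 59.5, was the only member with both TCPOBOP libraries on one side of both corn oil libraries among the 9 tested (log2 change 0.82 ± 0.28, edgeR adjusted p = 0.835). The other 8 log2 changes lay between -0.998 and 0.43, with adjusted p of at least 0.895. Over all genes edgeR called none, 751 had an unadjusted p under 0.05, and DESeq2 called 91.

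Without corn oil replicate 1, the library that went against its label, 2 TCPOBOP libraries were set against 1, which is assumed to vary like the other group. Then 5 of 9 members were called, where 9.35% of 13190 genes were called (5.71% raised, 3.64% lowered). Cyp1a2 was higher with TCPOBOP (1.44 ± 0.22 on the log2 scale, edgeR adjusted p = 0.00614). Glul was lower (-0.86 ± 0.14, adjusted p = 0.00717), as were Oat (-0.80 ± 0.15, adjusted p = 0.0132), Slc1a2 (-0.64 ± 0.12, adjusted p = 0.013) and Lgr5 (-1.52 ± 0.29, adjusted p = 0.016). Without corn oil replicate 2 instead, Oat (1.43, adjusted p = 0.0024) and Slc1a2 (1.42, adjusted p = 0.00148) were called in the other direction and Glul was at 0.37 (adjusted p = 0.242). Cyp2e1 was at -0.089 without corn oil replicate 1 and at 0.78 without replicate 2. The direction of Glul, Cyp2e1, Oat, Slc1a2 and Cyp1a2 with TCPOBOP thus depended on which corn oil library was kept. Lgr5 stayed below 0, from -1.52 to -0.17 with 1 library left out. The 2 corn oil libraries are not equal controls. Replicate 1, kept alone in the last fit, had Cyp2b10 at 3673 CPM, near the TCPOBOP libraries.

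Across all 26 libraries, each taken relative to the mean of its own control group on a log2 scale with 0.5 CPM added, the members most alike were Glul and Slc1a2 (Pearson r = 0.78), Oat and Lgr5 (r = 0.73) and Glul and Cyp2e1 (r = 0.67). Of 10473 other genes, the most like Rgn was Gamt (r = 0.94), and the most like Cyp2e1 was Chchd10 (r = 0.908). Lhpp was the most like Oat (r = 0.894), Hs3st3b1 the most like Slc1a2 (r = 0.875), Cyp2c67 the most like Glul (r = 0.868) and Cyp3a11 the most like Cyp1a2 (r = 0.861). For the lowly expressed members the closest genes were Fam192a for Tbx3 (r = 0.803), Tdrkh for Lgr5 (r = 0.789) and Zfp275 for Axin2 (r = 0.777), and Rhbg was not ranked because it failed the filter in 2 comparisons. These values describe the 26 libraries, which share groups and experiments, and carry no test. The libraries include corn oil replicate 1, which went against its label. Relative to their own mean the 2 corn oil libraries are mirror images, far apart for Glul, Slc1a2, Oat, Lgr5 and Cyp2e1. The part of this pair in the r values was not tested.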

How the data were processed

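The authors deposited read counts per gene for 26 mouse liver libraries, made from a stranded TruSeq mRNA kit per the labels' protocols. Per the submitters' processing notes, bcl2fastq 2.17.1.14, Trimmomatic, STAR 2.4.2a, Picard 1.119 and HTSeq were used with the builds GRCm38 and mm10; the annotation and the strand setting are not given in the sources used here, so genes that overlap are uncertain. The 5 summary lines that name no gene were left out. Symbols matched 47224 of 47643 identifiers. Gene positions, exon lengths and overlaps came from GENCODE M21 (GRCm38), although the counting may have used another annotation.

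Each comparison was fitted on its own libraries with edgeR 4.0.16 (limma 3.58.1, R 4.3.3): filterByExpr (a count of 10, a total of 15), TMM scaling, the quasi-likelihood F test and Benjamini-Hochberg adjustment over all genes. Each SE is the size of the log2 change over the root of its F value. Differences between effects were fitted on the 4 groups of 2 experiments. CPM are counts scaled by TMM over all 26 libraries. The procedure was tested on simulated data. The members and lists were chosen with earlier results of these data known. Named genes are all members, up to 3 called genes with the largest change per list and comparison, and per member the most correlated other gene. Of 7 hepatocyte markers, 6 were matched. Alternatives were DESeq2 1.42.0, its size factors, no filter, a mean count of 10, all libraries in a single fit, the replicate number as a block and leaving out each library.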

Additional observations from a re-analysis of the deposited data

How the results depend on the processing

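Of 234 member values under other settings than leaving out a library, outside the TCPOBOP comparison, 220 kept direction and call, 10 lost the call, 4 gained it and 0 changed sign. Of 214 values with 1 library left out, 178 kept both, 28 lost the call, 5 gained it and 3 changed sign. Both totals include members not called in the main fit, which had no call to lose. The deviations of same-numbered samples from their group means had correlations from -0.20 to 0.16 over the 5 comparisons. In the cholic acid comparison each sample was most like the one with its own number (0.098 to 0.16). That was also so on the high-fat diet and with TCPOBOP, where 2 libraries per group make the deviations mirror images. In the knockout no sample was most like its own number. These weak values do not settle whether the numbers mark pairs, and the main fits did not use them. With the replicate number as a block, 2 members were called under cholic acid in place of 4, Oat with TCPOBOP moved from -0.08 to 0.31, and the called numbers of members moved by no more than 1.5 times in the other comparisons. With all 26 libraries in a single fit, members called fell from 7 to 4 for the knockout against the high-fat diet, from 5 to 3 for hepatectomy against the high-fat diet and from 4 to 2 for the high-fat diet against cholic acid. Leaving out each library in turn, members called ranged from 0 to 5 for TCPOBOP, 4 to 6 for the knockout, 2 to 5 for hepatectomy, 5 to 7 for the high-fat diet and 0 to 4 for cholic acid. For differences between effects they ranged from 2 to 3 (knockout, hepatectomy), 4 to 7 (knockout, high fat), 3 to 4 (knockout, cholic acid), 4 to 6 (hepatectomy, high fat), 2 to 4 (hepatectomy, cholic acid) and 0 to 4 (high fat, cholic acid). Signs also changed for single members. With TCPOBOP, leaving out corn oil replicate 1 or 2 gave Glul -0.86 or 0.37, Cyp2e1 -0.089 or 0.78, Cyp1a2 1.44 or -0.15, Oat -0.80 or 1.43 and Slc1a2 -0.64 or 1.42. Over fits with 1 library left out, Axin2 ranged from -0.39 to 0.036 in the knockout and from -0.13 to 0.36 after hepatectomy, and Cyp1a2 from -0.10 to 0.43 under cholic acid. The uncalled differences between effects that changed sign ranged from -0.18 to 0.15 (Glul) and -0.0054 to 0.27 (Cyp1a2) for the knockout minus hepatectomy, from -0.26 to 0.99 (Tbx3) for the knockout minus high fat, from -0.22 to 0.13 (Slc1a2) and -0.23 to 0.35 (Tbx3) for the knockout minus cholic acid, and from -0.30 to 0.014 (Glul) and -0.90 to 0.27 (Tbx3) for high fat minus cholic acid. Over all genes, called numbers moved by over 1.5 times with DESeq2 (TCPOBOP 91 in place of 0, cholic acid 1445 in place of 600), without a filter (cholic acid 955) and with all libraries in a single fit (TCPOBOP 9, cholic acid 3132, high fat 1735 in place of 3333). Genes with different effects moved likewise in the single fit (knockout and high fat 1282 in place of 2297, knockout and cholic acid 2991 in place of 1939, hepatectomy and high fat 2666 in place of 4248, hepatectomy and cholic acid 2749 in place of 1820, high fat and cholic acid 2435 in place of 858) and, for the last pair, with the replicate block (446). With 1 library left out, all genes called ranged from 3969 to 6024 (knockout), 2554 to 4217 (hepatectomy, against 4225, lowest without sham replicate 2) and 1141 to 2644 (high fat, against 3333, lowest without high-fat replicate 1). The cause was not tested. Rhbg, Lgr5 and Axin2 rest on few counts, which limits their precision.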
